A study of Mus musculus with 4 samples.

Results

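The genes described here are 9 markers of Kupffer cells and other macrophages, Clec4f, Cd5l, Marco, Vsig4, Timd4, Csf1r, Cd163, Cd68 and Cd14, measured in mouse liver after exposure to aristolochic acid I (AAI), a nephrotoxic and carcinogenic compound of Aristolochia plants. They were taken by gene name from the arrays, where 14 non-control probes carried these names among 56495 probes for 37021 genes. Liver RNA came from C57BL/6 wild-type mice in 4 groups, with an age of 6 weeks that the labels tie to the injections. Females received AAI at 5 mg/kg/day or corn oil, the vehicle, and males received AAI at 2 mg/kg/day or corn oil, in each case by intraperitoneal injection on 5 days a week for 3 weeks. The groups given corn oil are called controls below. The RNA of 5 mice was mixed for each group and hybridized to 1 array, so the spread between mice was not measured, no group had a replicate, no test was run, and every difference below is a description of 1 pair of arrays. The dose differed between the sexes, so sex and dose cannot be told apart.

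Kupffer cells are the resident macrophages of the liver. They line the sinusoids, clear bacteria, endotoxin, aged red cells and debris from portal blood, and are kept up by signals through the CSF1 receptor and by neighbouring endothelial, stellate and hepatocyte cells. Clec4f, Cd5l, Vsig4, Timd4 and Marco are used as markers of Kupffer cells in the liver, whereas Csf1r, Cd68, Cd163 and Cd14 are found more widely in cells of the monocyte and macrophage lineage.

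Values are log2 of the array signal after quantile normalization, and a log2 ratio is the AAI array minus the control array of that sex. A gene with several probes is given by its brightest probe. All 14 marker probes were marked well above background on all 4 arrays. Levels of different probes are not comparable with each other. Technical error within a pair of arrays was described in 2 ways, and neither includes the variation between repeated hybridizations, which were not made. Between the probes that name the same gene, log2 ratios varied with an SD whose median was 0.252 over 9128 genes in females and 0.238 over 8618 genes in males, and the scanner software gave an error between 0.204 and 0.206 to the log2 ratio of every brightest marker probe.

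For Clec4f, Cd5l, Marco, Vsig4 and Timd4 the whole measurement rests on 1 probe of 60 bases each, and for Cd68 probes at different places of the gene gave different ratios. The sequences of the Clec4f and Vsig4 probes, and of a Cd68 probe further from the end of the gene than its brightest probe, are shown as the array files give them, in lower case. On mouse genome build mm9 they lie at chr6:83595281-83595339, chrX:93443157-93443216 and chr11:69478314-69478373, all on the minus strand.
Clec4f probe: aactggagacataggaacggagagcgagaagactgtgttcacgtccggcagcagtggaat
Vsig4 probe: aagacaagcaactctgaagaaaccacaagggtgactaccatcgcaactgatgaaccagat
Cd68 probe: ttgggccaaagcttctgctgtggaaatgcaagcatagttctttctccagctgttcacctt
The files pair these probes with the transcripts NM_016751, NM_177789 and NM_001291058. The other brightest probes lie at chr3:87174823-87174882 for Cd5l, chr1:122371115-122371134 for Marco, chr11:46657173-46657232 for Timd4, chr6:124280484-124280543 for Cd163 and chr11:69477775-69477834 for Cd68. Exons and untranslated regions were not annotated here.

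Most of the macrophage markers had less signal in the livers of AAI-treated mice of both sexes. In females given AAI, Cd5l, Timd4, Clec4f, Vsig4, Csf1r and Cd14 were lower by 2.14- to 3.42-fold than in the controls. In males, Timd4 was 2.20-fold and Cd5l 2.06-fold lower with AAI, and Csf1r, Cd163 and Clec4f were lower by 1.85- to 1.997-fold. Marco stood apart, with nearly the same signal on all 4 arrays. In whole liver, fewer macrophages and less RNA of these genes per macrophage cannot be told apart.

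Before the single markers, the content of the 4 RNA pools has to be described, since RNA of other tissues differed between them. All 12 skeletal muscle genes on the list were more than 2-fold higher with AAI in both sexes, with median log2 ratios of 5.45 and 6.01 in females and males, and their summed signal was 48736 against 1511 in females and 389919 against 6280 in males. Of the fat genes, 4 of 9 measured were 2-fold or more higher in females and 7 of 10 in males, with sums of 10760 against 5942 and 111698 against 7576. Of 10 adrenal genes, none was 2-fold higher in females, with sums of 3712 against 3762, and 7 were in males, with 46843 against 6805. Genes well above background numbered 11 of 12 for muscle and 9 of 10 for adrenal gland in corn oil-treated females, with all genes of both lists above background on the other arrays. Of the 10 fat genes, 8 were above background in female controls, 9 in females given AAI and 10 in both male groups. The 11 hepatocyte genes found on the array, among them those of apolipoprotein A-I and fibrinogen, had medians of -0.05 in females and -0.20 in males and sums between 2587205 and 2827789 on the 4 arrays. Quantile normalization sets the brightest values of all arrays nearly equal. Alb had 19.12 in both female groups and in male controls, and 19.15 in males given AAI. These sums therefore cannot show whether the amount of hepatocyte RNA differed between the pools. The part of the muscle, fat and adrenal RNA in the ratios of the macrophage markers was not tested, and with 1 array per group no array could be left out.

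Clec4f encodes a C-type lectin that binds glycans and, in the mouse liver, marks Kupffer cells. Its log2 signal was 13.44 in female controls and 12.03 in females given AAI, and 13.01 in male controls and 12.12 in males given AAI. Both AAI arrays were below both corn oil arrays, with log2 ratios of -1.41 in females and -0.89 in males, which left 37.8% and 54.1% of the corn oil signal.

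Cd5l encodes a secreted scavenger receptor protein, also called AIM, that is made by tissue macrophages and carried with IgM in serum. Its signal was 15.15 in female controls and 13.37 in females given AAI, and 15.18 in male controls and 14.13 in males given AAI. The corn oil arrays of the 2 sexes lay 0.03 apart, and both AAI arrays were below them. The log2 ratio of -1.77 in females was the lowest of the 9 markers, at rank 116 from the lowest among genes above background on both arrays, and that in males was -1.04.

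Timd4 encodes TIM-4, the receptor by which resident macrophages bind phosphatidylserine on apoptotic cells. Its signal was 9.44 in female controls and 7.88 in females given AAI, and 9.50 in male controls and 8.36 in males given AAI. Both AAI arrays were again lower, with log2 ratios of -1.55 in females and -1.14 in males, the latter being the lowest of the markers in males.

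Vsig4 encodes the complement receptor CRIg, which captures particles coated with C3 fragments. Its signal was 12.26 in female controls and 10.88 in females given AAI, and 11.28 in male controls and 10.63 in males given AAI. The corn oil arrays themselves differed by 0.98, the widest sex difference among the markers, and both AAI arrays were below both of them. The log2 ratio was -1.38 in females and -0.65 in males, or 38.3% and 63.7% of the corn oil signal.

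Marco encodes a class A scavenger receptor that binds bacteria and particles. Its signal was 13.81 in female controls and 13.86 in females given AAI, and 13.53 in male controls and 13.62 in males given AAI. The log2 ratios of 0.05 and 0.09 were smaller than the SD between probes, and both female arrays were above both male arrays. In females the sign changed with the processing, between -0.02 and 0.05. By the brightest probes, Marco was thus the only marker among the 9 without a lower signal in AAI-treated mice. It was measured with a single probe, whose listed coordinates span fewer than its 60 bases.

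Csf1r encodes the receptor of the growth factors CSF1 and IL-34, on which macrophage survival depends. The signal of its brightest probe was 13.45 in female controls and 12.13 in females given AAI, and 13.52 in male controls and 12.52 in males given AAI, so that both AAI arrays were below both corn oil arrays. The log2 ratio was -1.33 in females and -0.998 in males, where the fold of 1.997 fell just short of 2. A further Csf1r probe did not follow in females. It had signals of 10.03 in female controls and 10.25 with AAI, a ratio of 0.22, and of 10.52 and 9.81 in males, a ratio of -0.72.

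Cd163 encodes the scavenger receptor for complexes of haemoglobin and haptoglobin. Its brightest probe had a signal of 10.07 in female controls and 9.20 in females given AAI, and 10.70 in male controls and 9.70 in males given AAI. By this probe Cd163 was the marker with the lowest corn oil signal in females relative to males, by 0.63, and both AAI arrays were below both corn oil arrays. The log2 ratios were -0.87 in females and -0.998 in males, with a fold of 1.997 in males. A second, dim Cd163 probe, with signals between 5.03 and 5.67 on the 4 arrays and a software error of its ratio of 0.285 in females and 0.297 in males, had ratios of -0.64 in females and 0.32 in males.

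Cd68 encodes macrosialin, a glycoprotein of late endosomes and lysosomes in phagocytes. Its brightest probe had a signal of 11.63 in female controls and 11.46 in females given AAI, and 11.59 in male controls and 11.12 in males given AAI. The female difference of -0.17 was within the SD between probes, and that in males was -0.47. The probe whose sequence is given above had signals of 9.54 and 8.79 in females, a ratio of -0.75, and of 8.89 and 8.91 in males, a ratio of 0.02. The remaining probe, paired with the transcript ENSMUST00000108654, had ratios of -0.90 and -0.23. The 3 Cd68 probes thus ordered the sexes differently, and no single value describes this gene.

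Cd14 encodes the coreceptor that hands lipopolysaccharide to Toll-like receptor 4. Its brightest probe had a signal of 10.01 in female controls and 8.91 in females given AAI, and 9.50 in male controls and 9.11 in males given AAI. Both AAI arrays were below both corn oil arrays, with log2 ratios of -1.10 in females and -0.39 in males. The second Cd14 probe gave -1.58 in females and -0.50 in males, the same direction in both sexes.

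**Figure D1:**
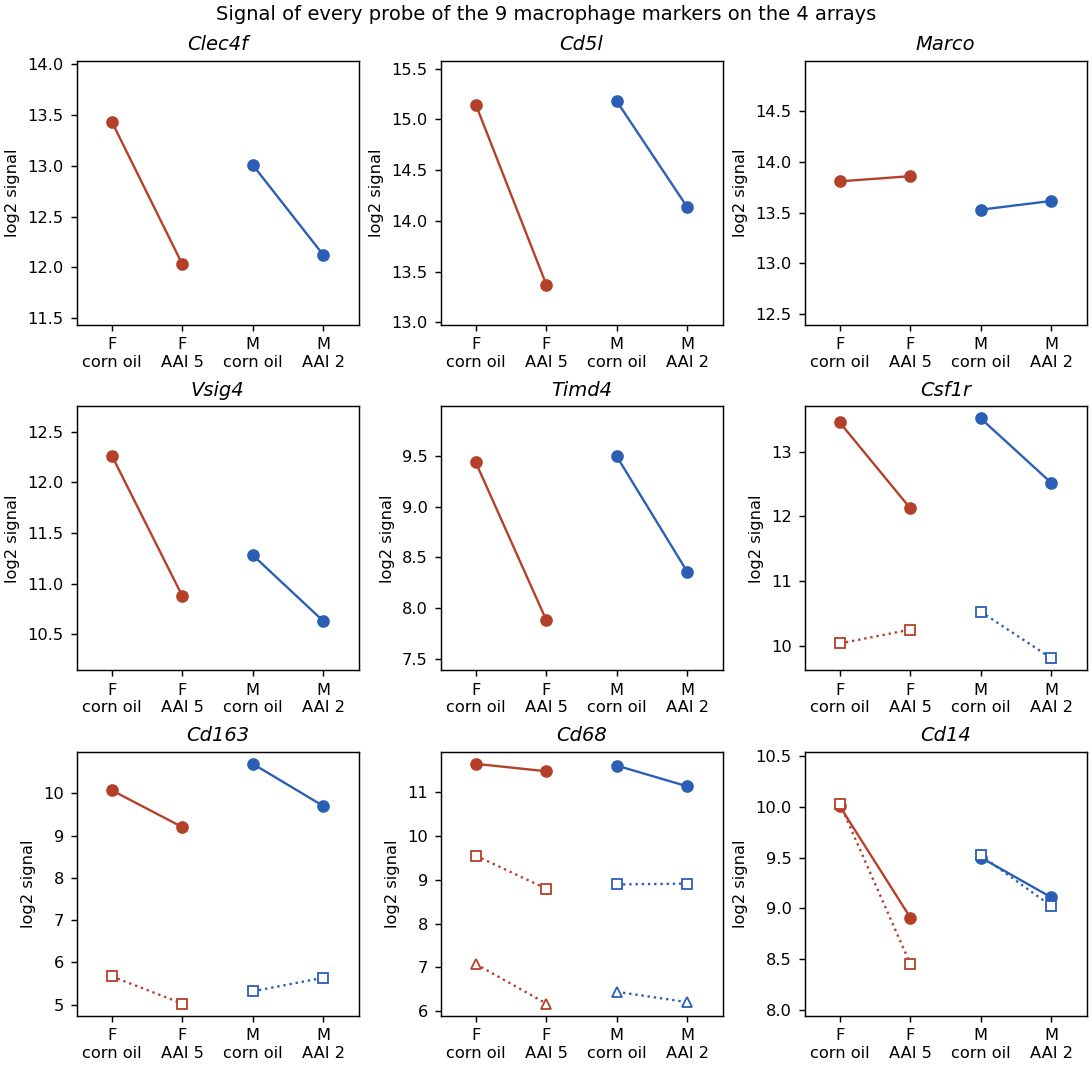
Log2 normalized signal (vertical axis, a separate range for each gene) of every probe of the 9 markers on the 4 arrays, with females in red and males in blue; filled circles and solid lines are the brightest probe, open symbols and dotted lines the further probes, and each point is 1 array of RNA from 5 mice. The lines slope down from corn oil to AAI for the brightest probe of every gene except Marco, and the further probes of Csf1r, Cd163 and Cd68 do not all follow.

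Counted over the genes, 6 of 9 markers were 2-fold or more lower with AAI in females and 2 of 9 in males, where 3.09% of 31682 genes and 4.59% of 30539 genes were. No marker was 2-fold or more higher in either sex, against 1.37% of genes in females and 3.51% in males. The median log2 ratio of the markers was -1.33 in females, with a range from -1.77 to 0.05, and -0.89 in males, with a range from -1.14 to 0.09. The median of all genes was 0.04 in females and 0.003 in males. In females the 6 markers past 2-fold were Cd5l, Timd4, Clec4f, Vsig4, Csf1r and Cd14, and Cd163, Cd68 and Marco did not pass. In males Timd4 and Cd5l passed, and Csf1r and Cd163 lay just outside the limit. With the arrays scaled to their 75th percentile instead, 745 genes were lower and 623 higher in females, in place of 978 and 434, and 1337 lower and 1250 higher in males, in place of 1402 and 1071.

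By probe, 12 of 14 had a negative log2 ratio in females and 11 of 14 in males, of which 7 and 2 were 2-fold or more lower. The decrease was larger than the SD between probes for 7 of 9 genes in females and 8 of 9 in males. For 8 of the 9 markers both AAI arrays were below both corn oil arrays, an order that 19.3% of the 28234 genes above background on all 4 arrays shared. The lowest of the 4 signals was that of AAI-treated females for 6 markers and that of AAI-treated males for Vsig4 and Cd68, whereas for Marco it was that of corn oil-treated males.

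**Figure D2:**
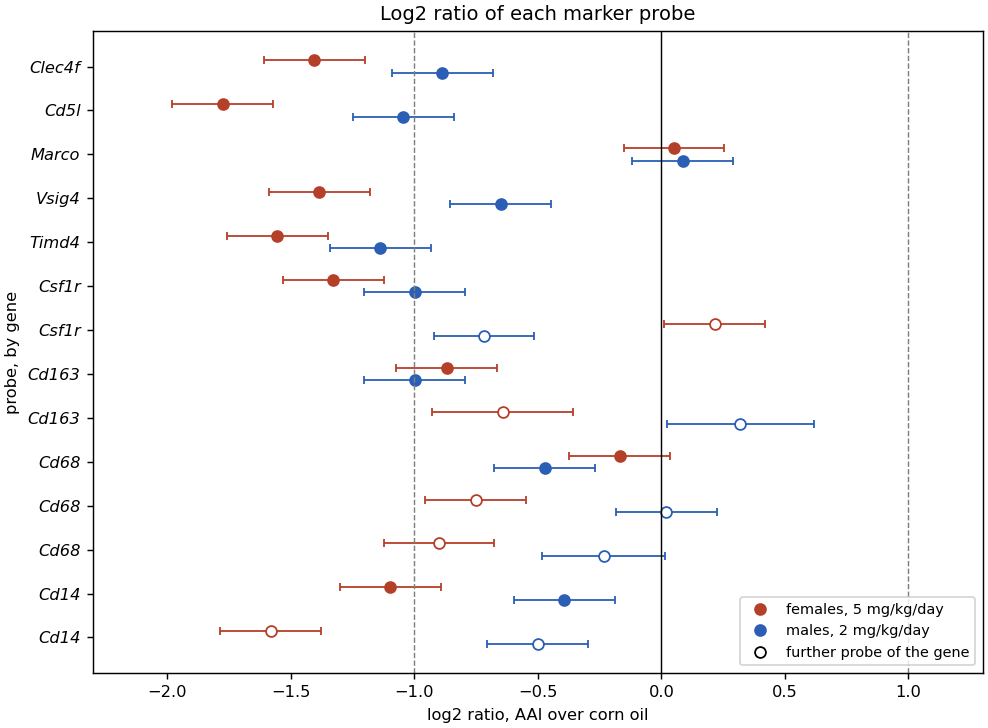
Log2 ratio, AAI over control (horizontal axis) for each of the 14 marker probes (vertical axis), with filled circles for the brightest probe of a gene and open circles for its further probes; bars are the error that the scanner software gives to the ratio and cover no spread between mice, and dashed lines mark 2-fold. In females 7 probes lie at or beyond the lower dashed line and in males 2 do, and the Marco points lie at 0.05 and 0.09.

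The sexes were compared in the same way. In corn oil-treated mice the markers differed between females and males in both directions, with a median log2 difference of 0.04, which was 0.28 with the mean of all probes, and a range from -0.63 for Cd163 to 0.98 for Vsig4. Cd14 was higher in females by 0.51 with both of its probes and Clec4f by 0.43, and for Cd5l and Timd4 the difference was within the SD between probes of 0.234. So was that of the brightest probes of Csf1r and Cd68, but the further Csf1r probe was lower in females, at -0.49, and the further Cd68 probes were higher, by 0.66 and 0.63. The dim second Cd163 probe, unlike the brightest probe of this gene, was higher in females, by 0.35. The log2 ratio with AAI was lower in females than in males for 7 of 9 markers, with a median difference of -0.42 over all 9, and most for Vsig4 and Cd5l. For Cd163 and Cd68 the ratio in males was below that in females, by 0.13 and 0.30, with the brightest probe. The order turned with the other probes. With the mean of all probes of a gene, Cd163 had -0.76 in females and -0.34 in males, Cd68 had -0.61 and -0.23, and Csf1r had -0.56 and -0.86. These differences of ratios were not tested, and females had the higher dose.

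Of 14 genes linked to Kupffer cells beyond the 9 markers, 5 were 2-fold or more lower in females and 1 in males, with medians of -0.82 and -0.38 and none 2-fold or more higher. The log2 ratio was negative for 13 of the 14 in females and for 9 in males. Id3, with 0.36 in females and 0.85 in males, was the one above 0 in both sexes, and Cd207, with -0.84 and 0.51, and Clec1b, with -1.22 and 0.34, were above 0 in males; these 3 were chosen after their values were seen. Folr2, the folate receptor of tissue macrophages, had log2 signals of 11.58 in female controls and 9.79 with AAI, a ratio of -1.78, and of 11.12 and 10.66 in males, a ratio of -0.46. Spic, a transcription factor of red pulp and Kupffer cell macrophages, had 9.39 and 7.77 in females, a ratio of -1.62, and 9.22 and 8.27 in males, a ratio of -0.95. C6, a component of the terminal complement pathway, had 8.71 and 7.61 in females and 11.25 and 8.75 in males, ratios of -1.09 and -2.50. C6 thus differed between the corn oil groups before any AAI, and hepatocytes make it too. Adgre1, which encodes the macrophage antigen F4/80 and was chosen after its values were seen, had a ratio of -1.39 in females and of -0.91 in males, where its second probe had 0.22.

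Among 25 general macrophage genes, 9 were 2-fold or more lower in females and none in males, with medians of -0.66 and -0.13. C1qa, a chain of complement C1q, had a ratio of -1.30 in females and 0.01 in males. Fcgr1, the high-affinity Fc receptor for IgG, had -1.44 and -0.46. Lyz2, macrophage lysozyme, had -1.28 and -0.39, with -1.51 and 0.02 for its second probe, and shares sequence with its neighbour Lyz1. Of the other leukocyte lists, medians were -0.38 in females and -0.16 in males for 8 genes of all leukocytes, and -0.54 and -0.34 for the 13 lymphocyte and NK cell genes measured. The 7 dendritic cell genes measured had medians of 0.18 in females and 0.14 in males, with a sign that changed between settings in both sexes.

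Genes of monocytes and neutrophils did not share this direction, with medians of 0.23 in females and 0.28 in males. Of those measured, 1 of 14 was 2-fold or more lower and 1 higher in females, and none of 13 was lower and 3 were higher in males. Chil3, a chitinase-like protein of monocytes and alternatively activated macrophages, had a ratio of 1.52 in females and 0.97 in males. S100a8, a calcium-binding protein of neutrophils and monocytes, had 0.34 and 1.44. Ly6c2, the antigen of inflammatory monocytes, had 14.12 in female controls against 12.94 with AAI and 12.38 in male controls against 13.98 with AAI, so that its direction differed between the sexes, and it shares most of its sequence with Ly6c1.

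**Figure D3:**
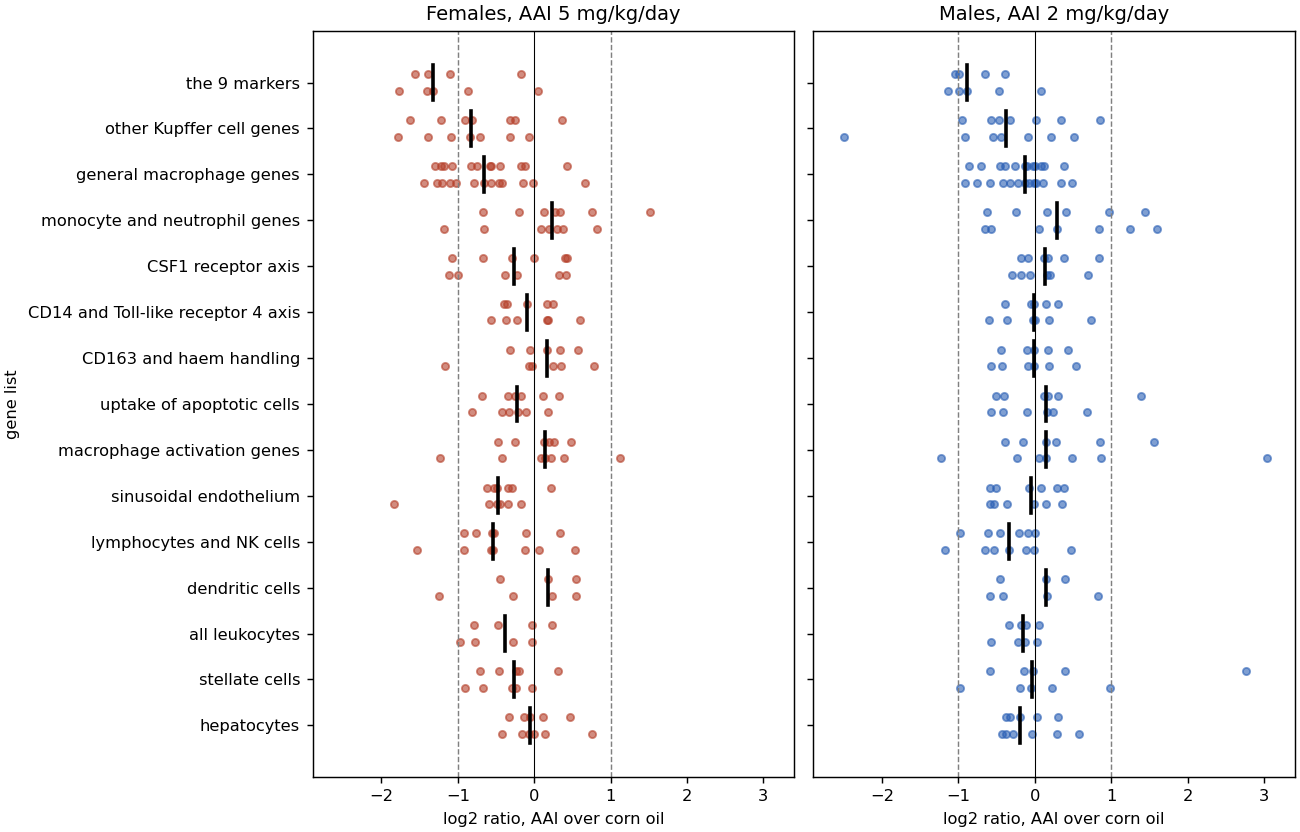
Log2 ratio, AAI over control (horizontal axis) for each measured gene (points) of the 9 markers and of 14 further lists (vertical axis) in females, left, and males, right; black bars are the list medians and dashed lines mark 2-fold. The 9 markers have the lowest median in both sexes, -1.33 and -0.89, followed by the other Kupffer cell genes. In males these have -0.38, close to the -0.34 of lymphocyte and NK cell genes. Their order there changes between settings, with ranges from -0.39 to -0.15 and from -0.38 to -0.22. Some genes stand in more than 1 list.

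The pathways in which the markers act were examined next. For Csf1r these are its ligands and the factors that keep macrophages in place. Of 12 such genes measured, 2 were 2-fold or more lower in females, none was in males and none was higher, with medians of -0.26 and 0.14. The ligand genes Csf1 and Il34, given for their role although outside the naming rule, had ratios of -0.39 and -0.003 in females and of 0.19 and 0.85 in males. The further Csf1 probes had -0.87 and -0.40 in females and 0.32 and 0.23 in males, and the second Il34 probe had 0.31 in both sexes. Irf8, a transcription factor of monocyte development, had -1.11 in females and -0.08 in males, but 0.03 and -0.34 with its second probe. Cebpb, a factor of myeloid cells and hepatocytes, had -1.07 and -0.18. Tgfb1, a growth factor that shapes resident macrophages, had -0.99 and 0.17, with -1.59 and 0.32 for its second probe.

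For Cd14 the partners of Toll-like receptor 4 signaling were taken. By the brightest probes, none of 11 measured genes was 2-fold lower or higher in either sex. The medians were -0.10 in females, with a sign that changed between settings, and -0.01 in males. Tlr4 itself had ratios of 0.16 in females and 0.19 in males, but -1.49 and -0.26 with a further probe. Traf6 had 0.17 and -0.37, and a further probe of it had 1.19 and 0.25. Tlr4 and Traf6 were chosen after their values were seen. Ly96, the MD-2 subunit that binds lipopolysaccharide, had ratios of 0.60 and 0.15, with -0.40 and 0.16 for its second probe. Lbp, the serum protein that delivers lipopolysaccharide to CD14, had 0.18 and 0.73, and Tirap, an adaptor, had 0.25 and -0.61.

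For Cd163 the genes of haemoglobin, haem and iron handling were taken, where 1 of 11 was 2-fold or more lower in females and none in males. Blvrb, a biliverdin reductase, had ratios of 0.78 and -0.09, and Lrp1, the receptor for haem bound to haemopexin, had 0.57 and 0.43, with further probes at 0.12 and 0.03 in females and 0.59 and -0.35 in males. Adam17, a protease that sheds CD163 and many other membrane proteins, had -1.17 in females and -0.43 in males, and its further probes had 0.40 and -0.72 in females and -0.83 in males. The list median was 0.17 in females and -0.02 in males, where the sign changed between settings.

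For Timd4 the other receptors and bridging proteins of apoptotic cell uptake were taken. Of 12 genes none was 2-fold lower in either sex, 1 was 2-fold or more higher in males, and the medians were -0.23 and 0.14. Axl, a receptor tyrosine kinase for bridged phosphatidylserine, had -0.81 and -0.41, with -1.24 and 0.05 for its second probe, and its ligand Gas6 had -0.25 and 0.68. Cd36, a scavenger receptor that fat and muscle also express, had 0.11 and 1.38.

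Macrophage activation genes had medians of 0.14 in females and 0.15 in males over 13 measured genes, with 1 lower and 1 higher in females and 1 lower and 2 higher in males. Tnf had 0.14 and -1.23, and its second probe 0.06 and -0.23. Il1b had -1.24 and 0.48, with further probes at -0.02 and -1.004 in females and 0.60 in males. Retnla, a secreted protein of alternatively activated macrophages and fat, had 6.51 in male controls and 9.55 with AAI, a ratio of 3.04, and a ratio of 0.48 in females. For the cells beside Kupffer cells at the sinusoid, medians were -0.47 in females and -0.05 in males for 12 endothelial genes, and -0.27 and -0.04 for 10 stellate cell genes. The male medians of both changed sign between settings.

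The genes whose signals over the 4 arrays were most like the mean of the 9 markers were sought among 21654 genes that carry a gene symbol, are not markers and were above background on all arrays, by the Euclidean distance of log2 signals centred on the gene's own mean. They were Hemgn, with a distance of 0.041, I730030J21Rik, A530006G24Rik, Zfp672 and Nrp2, and their log2 ratios lay between -1.12 and -1.04 in females and between -0.71 and -0.65 in males. Of the markers themselves Cd14, with a distance of 0.28, was nearest to the mean and Marco, with 1.01, the furthest. Placed among the 21654 genes by distance, Cd14 stood at rank 201, Clec4f at 274, Csf1r at 337 and Marco at 11222. Many genes that are not markers thus lay nearer to the mean than any marker did. With only 4 arrays the order of neighbours is loose, and between 0 and 3 of the 5 genes were named again under the 5 alternatives of scaling or background correction.

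Macrophage genes are commonly controlled by PU.1, the product of Spi1, which binds sequences with a GGAA core. As context for markers that had less signal together, the 250 bases before the transcription start were read from a table of RefSeq promoters on build GRCm38.p6 for 7 of the 9 markers, all but Csf1r and Cd14. The letters GAGGAA and GGAAGTG, which can overlap each other, were sought on both strands. GAGGAA was in 4 of 7 upstream sequences, of Cd5l, Marco, Vsig4 and Cd68, and in 23.3% of 32851 promoters. GGAAGTG was in 2 of 7, of Vsig4 and Timd4, and in 8.55% of promoters. The sequences of Clec4f, Timd4 and Vsig4, with lower signal under AAI, and of Marco, without, are shown on the strand of the gene with matches in capitals. They lie at chr6:83656117-83656366 on the minus strand, chr11:46810549-46810798 on the plus strand, chrX:96293439-96293688 on the minus strand and chr1:120505025-120505274 on the minus strand.
Clec4f upstream: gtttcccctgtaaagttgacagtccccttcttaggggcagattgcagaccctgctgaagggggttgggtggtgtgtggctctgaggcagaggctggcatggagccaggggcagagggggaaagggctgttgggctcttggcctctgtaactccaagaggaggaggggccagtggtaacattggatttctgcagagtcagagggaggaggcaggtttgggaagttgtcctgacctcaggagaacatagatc
Timd4 upstream: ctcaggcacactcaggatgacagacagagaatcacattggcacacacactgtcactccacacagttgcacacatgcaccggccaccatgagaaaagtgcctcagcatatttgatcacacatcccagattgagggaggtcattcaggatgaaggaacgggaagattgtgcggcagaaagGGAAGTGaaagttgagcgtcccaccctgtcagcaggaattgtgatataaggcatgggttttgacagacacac
Vsig4 upstream: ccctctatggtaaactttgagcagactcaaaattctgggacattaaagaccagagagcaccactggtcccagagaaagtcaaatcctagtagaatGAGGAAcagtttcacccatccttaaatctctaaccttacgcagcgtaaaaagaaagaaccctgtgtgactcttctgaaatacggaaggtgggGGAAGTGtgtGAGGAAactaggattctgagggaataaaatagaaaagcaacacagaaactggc
Marco upstream: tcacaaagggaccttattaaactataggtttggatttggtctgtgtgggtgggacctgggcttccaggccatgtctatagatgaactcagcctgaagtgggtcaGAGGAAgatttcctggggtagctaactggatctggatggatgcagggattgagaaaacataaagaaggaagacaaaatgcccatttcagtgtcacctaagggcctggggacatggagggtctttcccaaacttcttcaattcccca
The Marco sequence held GAGGAA, and that of Clec4f held neither string in this window. Other GGAA cores, which the Clec4f sequence also holds, were not sought. Spi1 itself had log2 ratios of -0.02 in females and 0.34 in males, and was chosen after its values were seen. It was measured with a single probe, whose log2 signals lay between 5.54 and 6.10. Whether PU.1 bears on the ratios of the markers was not tested.

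**Figure D4:**
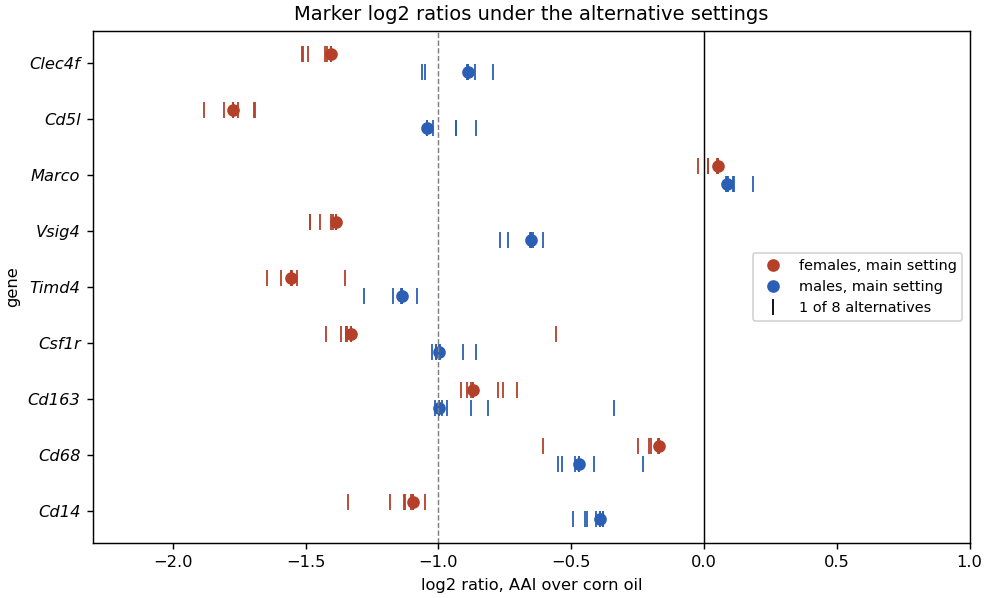
Log2 ratio, AAI over control (horizontal axis) of the 9 markers (vertical axis) in the main setting (circles) and under 8 alternatives of scaling, background correction, probe choice or filter (ticks), females in red and males in blue. The ratios of all markers except Marco stay below 0 in every setting shown, and the outlying ticks of Csf1r at -0.56 and Cd68 at -0.61 in females and Cd163 at -0.34 in males are means over all probes of the gene.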

How the data were processed

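Liver RNA pooled from 5 mice per group was hybridized, by a service company per the paper's methods, to 4 single-colour Agilent SurePrint G3 arrays and quantified with Feature Extraction 10.5.1.1. The deposited values are spot intensities, linear and not normalized between arrays. The software's multiplicative trend correction was not applied on the array of AAI-treated females and was on the other 3. The authors' table of the series holds a raw intensity, equal to the scanner signal within 1% on 100% of probes, and a quantile-normalized intensity. Its columns were matched to samples by sex and treatment in their names. Detection calls and quality marks were deposited as well.

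Groups were taken from the labels. Log2 processed signals of non-control spots were used, leaving out 70 to 234 outlier spots per array; spots of a probe were averaged and quantile normalized over the 4 arrays (Python 3.11.15, numpy 2.4.6, checked against limma 3.58.1 and on simulated data). No spot was saturated, and 74.7% to 81.5% of probes were well above background. Genes were counted from a log2 ratio of 1 upwards in size, and needed a signal well above background on either array. The number of arrays limits the precision.

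The 9 markers and 17 further gene lists were chosen with earlier results of these data known. Named were all markers, up to 3 genes per list with the largest changes and the 5 genes most like the markers. The effect of the 10 alternatives is given in the closing section.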

Additional observations from a re-analysis of the deposited data

Results flagged for a closer look

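Of the genes named by the rule of largest changes, 4 moved in opposite directions in the 2 sexes by more than the SD between probes. None of these differences was tested, with 1 array in each group. The log2 ratio of Ly6c2 was -1.18 in females against 1.60 in males. Gas6 had -0.25 in females, at the edge of the SD between probes of 0.252, and 0.68 in males. Il1b had -1.24 in females and 0.48 in males. Star, of the adrenal list, had -0.43 in females and 4.49 in males. Cd207, with -0.84 in females and 0.51 in males, and Clec1b, with -1.22 and 0.34, did the same but were named outside that rule. None of the 9 macrophage markers was in this set by its brightest probe.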

How the results depend on the processing

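The median log2 ratio of the 9 markers ranged from -1.42 to -1.33 in females and from -0.89 to -0.65 in males over 8 alternatives, and the ratios of all markers but Marco kept a negative sign in each. The count of markers past the threshold depended on where it was set and on the processing. In females 6 became 1 at 3-fold, 7 at 1.5-fold and 5 with the mean of all probes of a gene, where Csf1r dropped out. In males 2 became 0 at 3-fold and 6 at 1.5-fold. The male count was 1 with 75th percentile scaling, where Cd5l had -0.86, and 4 with the authors' normalized values, where Csf1r and Cd163 passed. It became 3 with normexp and 3 without the multiplicative trend correction, where Cd5l, at -0.93 and -0.94, dropped out and Csf1r and Clec4f, the latter at -1.05 and -1.06, passed. Leaving out replaced spots gave 6 and 2. With the mean of all probes of a gene, the median difference between corn oil-treated females and males was 0.28 in place of 0.04, and the ratio of Csf1r in females was -0.56, of Cd68 -0.61 in females and -0.23 in males, and of Cd163 in males -0.34. The median of each other list, in each sex, was compared with its value under each of the 8 alternatives. Of these comparisons, 265 stayed within the SD between probes and 7 moved further. Over all genes, normexp background correction left 343 lower and 139 higher in females and 644 lower and 554 higher in males. Without the filter on dim probes, 1433 were lower and 1078 higher in females, and 2240 and 1793 in males. Quantile normalization within each sex gives no value for the sex difference, since its arrays are then on different scales. No paired analysis was possible because each group is 1 array and shares no second replicate number with another; a fit over both sexes, which had different doses, was not run. No array could be left out in turn, and the spread between mice is unknown.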
